A study of Mus musculus with 16 samples.

Results

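Glomerular extracts of 4 female mice taken 18 hours after an injection of nephrotoxic serum were compared with those of 4 untreated female mice, with the genotypes pooled. These 8 arrays were chosen by their labelled time out of 16 in the series, which also holds 4 arrays at 6 days and 4 at 2 weeks. Each time holds 2 mice of the strain C57Bl/6, labelled wild type (WT), and 2 of B6.ER⍺KO, labelled as lacking estrogen receptor alpha (KO), with 1 array per mouse. Treated mice received 8 ul per g of serum raised in sheep, given intraperitoneally to induce nephritis against the glomerular basement membrane (GBM), and the kidney was taken afterwards. RNA came from extracts enriched for glomeruli, and 10 ng of it was labelled for an Affymetrix array. The age of the mice, whether untreated mice were given a control injection, the hour of day at which kidneys were taken and the allele of the receptor deletion were not stated in these sources. Values are the deposited log2 values for 30142 genes, and every difference below is the mean of the 4 arrays at 18 hours minus the mean of the 4 others, in deposited log2 units. A 16-bit scanner reaches at most 16 on the log2 scale, yet the means of 152 genes exceeded 16, so the values are more than a plain log2 of intensity, and 1 unit is not shown to be a 2-fold change of RNA.

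Nephrotoxic serum holds antibodies that bind the GBM, the sheet between podocytes and the fenestrated glomerular endothelium, and its first hours bring complement and neutrophils into the capillary loops. The kidney also carries a strong circadian clock. In that clock the activators Arntl (Bmal1), Clock and Npas2 switch on Period and Cryptochrome genes, whose proteins repress the activators, while Nr1d1 and Nr1d2 repress Arntl, and the proline- and acid-rich factors Dbp, Tef and Hlf carry the rhythm to output genes. In the endoplasmic reticulum (ER), chaperones such as Hspa5 fold secreted and membrane proteins, and their genes are switched on together by Atf6 and Xbp1 when unfolded protein builds up.

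Before the results, 2 of the 18-hour arrays went against their genotype labels. Abcc3, a drug and bile salt transporter, was at 12.85 and 12.29 in the untreated WT arrays and at 5.98 and 5.92 in the untreated KO arrays. At 18 hours it was at 13.09 in WT replicate 1 but 6.25 in WT replicate 2, and at 6.50 in KO replicate 1 but 12.93 in KO replicate 2. The mean of 17 genes known to be higher in male kidney was 15.18 in the array labelled WT 18 hours replicate 2 and 9.10 in that labelled KO 18 hours replicate 2, against 9.36 to 9.76 in untreated WT and 14.65 to 15.21 in untreated KO. Esr1, the deleted gene, was at 7.04 and 7.0 in untreated WT and at 7.40 and 7.56 in untreated KO, so its probeset was no lower in KO. It was not tested whether that probeset lies outside the deleted part. The pooled comparison does not use the genotype labels, and its leading results are also given without both 18-hour replicate 2 arrays. The extracts held much tubule RNA. The mean over 16 proximal tubule markers was 15.57 to 15.93 at 18 hours and 15.57 to 16.16 in untreated mice, while the mean over 13 podocyte markers was 9.10 to 9.79 and 9.02 to 10.21. In bulk tissue, fewer cells of a type and less RNA per cell cannot be told apart, which holds for every result below.

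No gene passed an adjusted p of 0.05 between 18 hours and untreated mice (limma with Benjamini-Hochberg adjustment, 0 of 30142 genes, lowest adjusted p = 0.222). At an unadjusted p under 0.05 there were 2288 genes (7.59%), of which 1460 (4.84%) were higher and 828 (2.75%) were lower at 18 hours. All 4 arrays at 18 hours lay above all 4 untreated arrays for 916 genes (3.04%), and all 4 lay below for 478 (1.59%). These shares are the background against which the counts in each group of genes are read, and the median difference of all genes was 0.02. A test of the genotype difference in this response called 0 genes (limma; 2596 genes at an unadjusted p under 0.05), but it rests on labels that 2 of the 4 arrays at 18 hours go against and so says nothing about genotype. The genes below are therefore described by their values at each array and not as changes. They are the 27 named genes with the smallest p-values, of which 7 were higher and 20 lower at 18 hours, and a selection of gene list members. That selection leaves out some members with the largest differences of their list.

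The clock genes led this comparison. Of 21 clock genes measured, 3 were higher (Arntl, Npas2 and Clock) and 8 were lower (Nr1d2, Per2, Per3, Cry2, Dbp, Tef, Bhlhe41 and Wee1) with no overlap between the groups, and their median difference was -0.40. The shares of all genes with no overlap were 3.04% higher and 1.59% lower. At an unadjusted p under 0.05 there were 3 clock genes higher and 9 lower, the ninth being Cry1, against 4.84% and 2.75% of all genes. Without both 18-hour replicate 2 arrays those counts were 2 and 9, and over all alternatives 11 to 16 of the 21 stood at an unadjusted p under 0.05. Among the 27 genes with the smallest p-values, 7 were of this list.

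The promoters of 4 clock genes that lay on opposite sides of this comparison are shown for the short sequences they hold, through which clock proteins act. Each is the RefSeq window from 250 bases before to 50 bases after an annotated start, on the build GRCm38.p6, written 5′ to 3′ on the gene's own strand, with the motif in capitals. The motifs, searched on both strands, were the E-box CACGTG, bound by Arntl with Clock or Npas2, the D-box TTATGTAA, bound by Dbp, Tef and Hlf, and the element TAGGTCA, bound by the Ror and Nr1d receptors. The Arntl window at chr7:113207261-113207560 on the plus strand is that of the downstream of its starts. The Per3 window lies at chr4:151044616-151044915 on the minus strand, the Tef window, of the upstream start, at chr15:81802423-81802722 on the plus strand and the Bhlhe41 window at chr6:145865371-145865670 on the minus strand.
Arntl: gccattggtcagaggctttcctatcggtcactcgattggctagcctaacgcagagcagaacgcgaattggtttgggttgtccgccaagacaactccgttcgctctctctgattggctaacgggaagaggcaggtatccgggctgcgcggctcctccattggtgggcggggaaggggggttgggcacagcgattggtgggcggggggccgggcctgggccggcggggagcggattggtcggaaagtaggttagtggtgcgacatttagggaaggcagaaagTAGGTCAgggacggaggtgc
Per3: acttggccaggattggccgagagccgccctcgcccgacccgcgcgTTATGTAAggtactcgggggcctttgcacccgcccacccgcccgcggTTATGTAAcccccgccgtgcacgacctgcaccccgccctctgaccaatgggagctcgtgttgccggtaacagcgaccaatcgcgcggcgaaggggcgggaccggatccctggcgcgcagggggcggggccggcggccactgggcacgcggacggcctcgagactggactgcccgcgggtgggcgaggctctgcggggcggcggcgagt
Tef: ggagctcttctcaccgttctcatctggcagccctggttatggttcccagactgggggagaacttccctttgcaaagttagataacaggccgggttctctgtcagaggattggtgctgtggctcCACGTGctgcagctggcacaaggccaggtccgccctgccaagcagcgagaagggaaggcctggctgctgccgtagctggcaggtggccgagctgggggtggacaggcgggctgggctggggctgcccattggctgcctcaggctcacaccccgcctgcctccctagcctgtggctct
Bhlhe41: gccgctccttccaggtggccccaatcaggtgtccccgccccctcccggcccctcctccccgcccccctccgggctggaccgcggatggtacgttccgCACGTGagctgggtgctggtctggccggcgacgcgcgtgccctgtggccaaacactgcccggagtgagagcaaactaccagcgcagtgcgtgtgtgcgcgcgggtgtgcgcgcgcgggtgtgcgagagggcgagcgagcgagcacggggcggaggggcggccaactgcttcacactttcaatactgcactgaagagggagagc
Arntl held 1 match to TAGGTCA and Per3 held 2 matches to the D-box. Of the 17 clock genes with a RefSeq window, 4 held an E-box (Bhlhe41, Cry1, Per1 and Tef), 1 a D-box (Per3) and 2 the TAGGTCA element (Arntl and Nfil3). Among all 27025 genes with a window the shares were 8.09%, 1.11% and 2.97%. A match says that the letters are there, not that a factor was bound.

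Among the activators, Arntl had the largest difference of the list. Arntl was at 6.19 and 5.99 in untreated WT and at 6.11 and 6.50 in untreated KO, and at 18 hours at 9.03 and 7.85 in the arrays labelled WT and 7.65 and 8.23 in those labelled KO. The lowest array at 18 hours was thus above the highest untreated array, and the difference was 1.99 ± 0.27 (SE; limma unadjusted p = 5.4e-05, adjusted p = 0.24). Npas2, the partner that can stand in for Clock, was at 5.96, 6.17, 6.31 and 6.03 in untreated mice and at 7.20, 6.69, 6.76 and 6.80 at 18 hours, given here and below in the order WT replicates 1 and 2, then KO replicates 1 and 2. Its difference was 0.75 ± 0.13 (adjusted p = 0.329). For Clock itself the groups also lay apart, 10.81 to 11.02 against 11.07 to 11.20, but by only 0.23 ± 0.09.

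The repressors lay on the other side. Per3 was at 10.00, 9.96, 9.76 and 9.63 in untreated mice and at 7.93, 8.85, 8.81 and 8.35 at 18 hours, a difference of -1.35 ± 0.20 (adjusted p = 0.24). Per2, which resets the clock, was at 9.87, 8.99, 9.91 and 10.10, and then at 7.27, 8.90, 8.67 and 8.33, so that the groups were separated only by the gap between 8.90 and 8.99 (difference -1.42 ± 0.37). Cry2 had the second smallest p-value of all named genes. It was at 8.37, 8.06, 8.01 and 8.15 in untreated mice and at 7.03, 7.32, 7.33 and 7.35 at 18 hours, a difference of -0.89 ± 0.11 (adjusted p = 0.222). Bhlhe41 (Dec2), a repressor of E-box genes, had the smallest p-value, with 6.09, 6.00, 5.92 and 5.89 against 5.30, 5.48, 5.46 and 5.41 (difference -0.56 ± 0.07, adjusted p = 0.222). Nr1d2 (Rev-erb beta) was at 11.83 to 12.02 in untreated mice and at 11.13 to 11.70 at 18 hours. Not every repressor followed: Per1, which also answers to glucocorticoid, was at 7.67 to 8.56 and then 8.42 to 8.58 (difference 0.31 ± 0.19), and the groups overlapped for Nr1d1 (Rev-erb alpha; -0.40 ± 0.32), Cry1 (-0.34 ± 0.12) and Bhlhe40 (-0.38 ± 0.17).

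The output genes lay on the side of the repressors. Dbp was at 9.78, 10.21, 8.97 and 9.13 in untreated mice and at 6.93, 8.00, 7.89 and 7.54 at 18 hours, a difference of -1.93 ± 0.32 (adjusted p = 0.305). Tef was at 11.51 to 11.85 and then at 10.67 to 11.47 (difference -0.60 ± 0.18), and Wee1, a clock-driven kinase that delays mitosis, at 8.55 to 9.12 and then at 7.94 to 8.28 (-0.79 ± 0.14, adjusted p = 0.387). Hlf (-0.43 ± 0.19) and Usp2 (-0.50 ± 0.23) overlapped. Nfil3, which represses D-box genes, was at 4.96 to 5.70 in untreated mice and 5.42 to 6.02 at 18 hours, with overlap. The remaining clock genes, Rora, Csnk1d and Csnk1e, differed by between -0.14 and -0.02. The array labelled WT 18 hours replicate 1 was the highest of the 4 for Arntl and Npas2 and the lowest for Per2, Per3, Cry2, Nr1d2, Bhlhe41, Dbp and Tef.

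**Figure D1:**
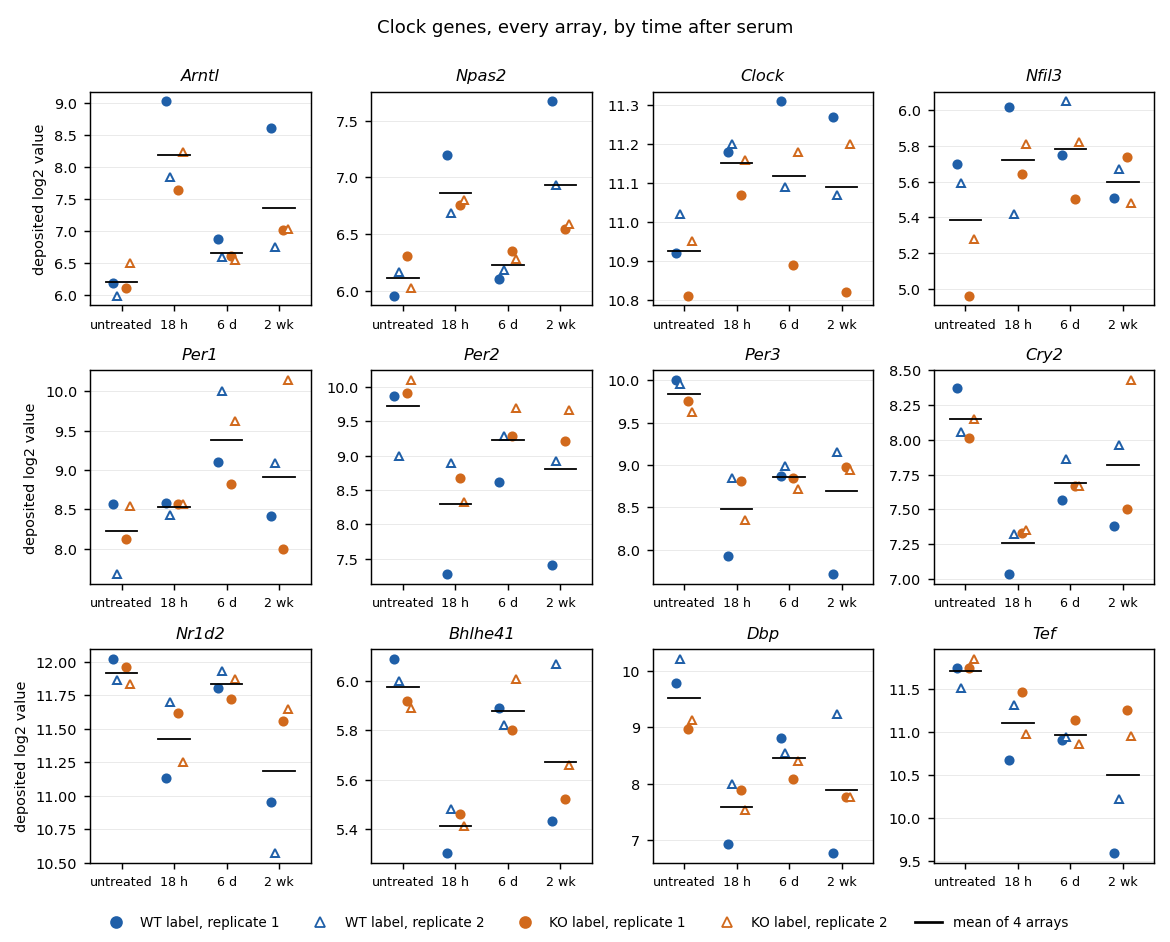
Deposited log2 value (y axis, a separate scale in each panel) of 12 clock genes in each of the 16 arrays, by time after serum (x axis); blue marks arrays labelled WT and orange those labelled KO, filled circles replicate 1, open triangles replicate 2, and bars the mean of 4 arrays. At 18 hours Arntl lies between 7.65 and 9.03, above all untreated arrays (5.99 to 6.50), and Cry2 between 7.03 and 7.35, below all untreated arrays (8.01 to 8.37).

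Set against the later times, the clock genes at 18 hours differed from those at 6 days in part. The 18-hour arrays are shared by these comparisons. Against 6 days 3 clock genes passed the test. Arntl was higher at 18 hours by 1.54 ± 0.27 (adjusted p = 0.0236), Npas2 was higher by 0.63 ± 0.12 (adjusted p = 0.0295) and Bhlhe41 was lower, with a difference of -0.47 ± 0.07 (adjusted p = 0.0168). The background for this comparison is 0.458% of genes called higher and 2.28% called lower. Cry2 (-0.44 ± 0.10, adjusted p = 0.0574), Dbp (-0.87 ± 0.24, adjusted p = 0.105) and Per3 (-0.37 ± 0.20, adjusted p = 0.402) did not pass. Against 2 weeks no clock gene passed, and the spread at 2 weeks was wide: Arntl had a mean of 7.35 ± 0.85 (SD) there. In WT 2 weeks replicate 1 Arntl was at 8.62, and in the other arrays at that time at 6.75, 7.01 and 7.04. The same array was the lowest at 2 weeks for Per3 (7.71) and Dbp (6.77) and the highest for Npas2 (7.67).

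The ER chaperones formed the list with the highest median, 0.25, among those examined. Of 19 measured, 7 were higher and 0 lower at an unadjusted p under 0.05, and for 5 of them (Hspa5, Creld2, Sdf2l1, Hyou1 and Calr) all 4 arrays at 18 hours lay above all 4 untreated arrays. The corresponding shares of all genes were 4.84% and 3.04%. Without both 18-hour replicate 2 arrays 5 stood at an unadjusted p under 0.05. The promoters of Hspa5, Creld2 and Calr are shown because they hold the ER stress element, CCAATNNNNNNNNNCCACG on either strand, through which Atf6 acts with the factor NF-Y; the fixed letters are in capitals. The windows lie at chr2:34771840-34772139 on the plus strand (Hspa5), chr15:88819396-88819695 on the plus strand (Creld2) and chr8:84846882-84847181 on the minus strand (Calr).
Hspa5: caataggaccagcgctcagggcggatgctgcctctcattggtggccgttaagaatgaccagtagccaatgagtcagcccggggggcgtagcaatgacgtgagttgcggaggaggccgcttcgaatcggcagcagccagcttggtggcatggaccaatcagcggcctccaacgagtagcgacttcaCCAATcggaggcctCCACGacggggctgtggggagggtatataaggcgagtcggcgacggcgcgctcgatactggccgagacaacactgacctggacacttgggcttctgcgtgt
Creld2: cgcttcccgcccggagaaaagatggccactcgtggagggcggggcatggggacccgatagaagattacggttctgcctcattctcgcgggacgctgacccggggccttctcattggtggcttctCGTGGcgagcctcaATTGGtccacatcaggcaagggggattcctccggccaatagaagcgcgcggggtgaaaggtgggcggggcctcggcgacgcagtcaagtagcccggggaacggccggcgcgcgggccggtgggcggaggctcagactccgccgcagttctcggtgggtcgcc
Calr: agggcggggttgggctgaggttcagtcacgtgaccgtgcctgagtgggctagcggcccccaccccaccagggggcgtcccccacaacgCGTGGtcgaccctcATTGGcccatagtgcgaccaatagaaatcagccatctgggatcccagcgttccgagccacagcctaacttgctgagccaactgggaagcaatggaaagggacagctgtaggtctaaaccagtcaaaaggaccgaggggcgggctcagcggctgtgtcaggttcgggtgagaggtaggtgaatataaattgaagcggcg
The element was in the windows of 7 of the 17 chaperone genes that have one (Calr, Canx, Creld2, Dnajc3, Hsp90b1, Hspa5 and Pdia6), against 0.137% of all genes with a window. Of the 5 chaperones that lay wholly above the untreated arrays, Sdf2l1 and Hyou1 are not among these 7.

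Hspa5 (BiP), the main Hsp70 of the ER, was at 12.13, 11.91, 12.42 and 12.57 in untreated mice and at 13.51, 13.74, 12.95 and 13.25 at 18 hours, a difference of 1.11 ± 0.20 (adjusted p = 0.422). Creld2, a small secreted chaperone, was at 11.32, 10.46, 11.50 and 11.84, and then at 12.51, 13.25, 12.37 and 12.33 (difference 1.33 ± 0.31). Hyou1, which exchanges the nucleotide of Hspa5, was at 8.80 to 9.50 and then at 9.70 to 10.47 (0.79 ± 0.20). Sdf2l1, a partner of the ER Hsp40 proteins, was at 7.86 to 8.24 and then at 8.26 to 9.62 (0.88 ± 0.25), and Calr (calreticulin), a lectin chaperone, at 13.33 to 13.81 and then at 13.89 to 14.47 (0.60 ± 0.16). Hsp90b1 (Grp94) and Dnajb11 were also higher on average, by 0.69 ± 0.22 and 0.48 ± 0.19, but their groups overlapped. The list of Atf4 targets, the amino acid arm of the same stress response, had a median of 0.02, that of all genes. Against 6 days no chaperone passed the test in either direction, and the list's median difference was 0.06.

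In the list of phosphate, vitamin D and calcium handling, 2 genes lay wholly below the untreated arrays. Cyp24a1, the hydroxylase that degrades active vitamin D, was at 9.84, 11.11, 12.81 and 12.29 in untreated mice and at 9.04, 9.75, 8.76 and 9.01 at 18 hours. The groups lay just apart, by the gap between 9.75 and 9.84, and the difference was -2.37 ± 0.58 (limma unadjusted p = 0.00288). Vdr, the vitamin D receptor, was at 12.25 to 12.47 in untreated mice and at 11.77 to 11.97 at 18 hours (-0.49 ± 0.09, adjusted p = 0.438). Of the 19 genes of the list, whose median was -0.16, 0 were higher and 5 lower at an unadjusted p under 0.05, against a background of 2.75% lower. Besides Cyp24a1 and Vdr, the phosphate carrier Slc34a3 (-1.07 ± 0.36) and the sodium-calcium exchanger Slc8a1 (-1.22 ± 0.42) were among these, with overlapping groups. Cyp24a1 also lay below 6 days, by -2.46 ± 0.38 (adjusted p = 0.0182), a call that passed the test, while Vdr differed from 6 days by 0.02 ± 0.23.

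Among the matrix lists, the interstitial and matricellular one had a median below the 0.02 of all genes, and the others lay near 0.02. Of 24 genes counted in the interstitial and matricellular list 1 was higher and 5 were lower at an unadjusted p under 0.05, against 4.84% and 2.75% of all genes. On average 8 were higher and 16 lower, with a median of -0.10. Wholly above the untreated arrays lay 0 and wholly below lay 3, against 3.04% and 1.59% of all genes. This list holds Loxl3 in place of Loxl2, which was not measured. Of 19 GBM genes 2 were higher and 1 was lower, with a median of 0.06, and of 22 matrix proteases and inhibitors 1 was higher and 1 lower, with a median of 0.04. The 12 mesangial and smooth muscle markers had a median of -0.19, with 1 higher and 2 lower. The higher member of the first list was Ccn1, a matricellular protein (0.69 ± 0.30), and that of the last was Tagln (SM22), an actin-binding protein of contractile cells (0.52 ± 0.19), both with overlapping groups. Fbln5, an elastic fibre protein, was at 9.56, 10.70, 10.06 and 9.99 in untreated mice and at 9.21, 8.56, 8.45 and 8.62 at 18 hours (difference -1.37 ± 0.25, adjusted p = 0.422). Pdgfrb, the receptor that marks mesangial cells and pericytes, was at 10.95, 10.93, 10.13 and 10.25, and then at 10.02, 9.30, 9.16 and 9.25 (-1.13 ± 0.25). Igfbp5, a binding protein abundant in glomeruli, was at 14.05 to 14.88 and then at 13.23 to 13.99 (-1.09 ± 0.23). For these 3 genes no array at 18 hours reached the untreated range. The matrix gene Dcn (decorin) was at 7.84 to 8.89 and then at 7.23 to 7.75 (-1.02 ± 0.24). Tnxb (tenascin X), with 6.69 to 6.71 against 6.06 to 6.28 (-0.53 ± 0.06, adjusted p = 0.222), has a near-identical partial copy, Tnxa (-0.40 ± 0.06), so the pair may share signal and counts once. Further genes of the 27 were Itih5 (-0.73 ± 0.11) and Svep1 (-0.59 ± 0.12), both extracellular proteins, the chemokine Cxcl14 (-0.55 ± 0.09), and Gucy1a2 (-0.51 ± 0.07), a subunit of the nitric oxide receptor. Adamts6, a secreted metalloprotease, lay the other way at 8.20 to 8.54 and then 8.81 to 9.03 (0.65 ± 0.10, adjusted p = 0.24).

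The glomerular endothelial markers had the second lowest median, -0.33. Of 15 measured, 0 were higher and 6 lower at an unadjusted p under 0.05, and 3 lay wholly below the untreated arrays, the transcription factors Erg (-0.33 ± 0.12), Sox17 (-0.35 ± 0.12) and Gata5 (-0.32 ± 0.11). Among all genes 2.75% were lower at that threshold and 1.59% lay wholly below. Ehd3, an endocytic protein of glomerular endothelium, was at 11.36, 10.20, 9.71 and 10.65 in untreated mice and at 9.80, 9.39, 9.11 and 9.10 at 18 hours (-1.13 ± 0.33), with overlap. Kdr, the main receptor of vascular endothelial growth factor, differed by -0.78 ± 0.27. The count of endothelial markers at an unadjusted p under 0.05 moved with the choice of arrays and covariates. It was 3 without WT 18 hours replicate 2, 9 without WT 18 hours replicate 1, 1 without both 18-hour replicate 2 arrays and 0 in the fits over all 16 arrays. It was 9 with the difference between the proximal tubule and podocyte means as a covariate and 10 with a covariate of sex-biased kidney genes. The summed marker level ran from 8.39 to 9.04 at 18 hours and from 8.63 to 9.32 in untreated mice, as a mean over the list. The mesangial mean was 7.73 to 8.29 at 18 hours and 7.98 to 8.56 in untreated mice. The 13 podocyte markers had a median of -0.12, with 0 at an unadjusted p under 0.05.

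Neutrophil and platelet genes were mostly higher on average at 18 hours, and several were highest in 1 array, KO replicate 2. S100a8, a calcium-binding protein abundant in neutrophils, was at 4.22, 4.04, 4.23 and 3.86 in untreated mice and at 5.37, 4.60, 5.03 and 7.17 at 18 hours (1.46 ± 0.48, limma unadjusted p = 0.0141). All 4 arrays at 18 hours were above the untreated ones, and KO replicate 2 was the highest by far. Its partner S100a9 was at 5.56 to 6.10 and then at 7.12, 5.48, 6.53 and 8.91, with overlap. Of 18 neutrophil markers 17 were higher and 1 lower on average, and 3 lay wholly above the untreated arrays (S100a8, Retnlg and Csf3r), against 3.04% of all genes. The mean over the list was 4.90 to 5.0 in untreated mice and 5.13, 4.94, 5.13 and 5.53 at 18 hours. The platelet chemokines showed the same array: Ppbp was at 6.01, 5.65, 5.82 and 7.83 at 18 hours and Pf4 at 6.42, 6.38, 6.24 and 7.42, against 5.52 to 5.79 and 5.97 to 6.34 in untreated mice. Sele (E-selectin), made by activated endothelium, was at 5.81, 5.24, 5.72 and 6.82 at 18 hours and at 5.10 to 5.33 in untreated mice (0.70 ± 0.28). Itgb3, an integrin of platelets and endothelium, lay wholly above, at 5.43 to 5.86 against 5.20 to 5.32 (0.33 ± 0.09). The 24 macrophage, 14 T and NK cell and 9 B and plasma cell markers had medians of 0.03, 0.01 and 0.01. At 18 hours the means over the T and NK cell and the B and plasma cell lists were 4.84 to 4.88 and 5.42 to 5.58. Array medians ran from 5.57 to 5.90, so these markers were dim and their medians do not show whether such cells changed in number.

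Of the 18 genes of NF-kappaB feedback and adhesion, 3 were higher and 1 lower at an unadjusted p under 0.05, with a median of 0.08. For this and every such count in this paragraph, the shares of all genes were 4.84% higher and 2.75% lower. None of the 3 higher genes of NF-kappaB feedback and adhesion, among them Sele and the inhibitor Nfkbia (0.44 ± 0.16), lay wholly above the untreated arrays. In 6 further inflammatory lists the medians were 0.02 for 29 cytokines and receptors, 0.04 for 25 chemokines, 0.06 for 21 type I interferon genes, 0.03 for 19 interferon gamma genes, -0.10 for the 17 genes counted in the complement list and 0.04 for 27 acute phase genes. The complement list holds the odorant receptor Olfr48, matched through a synonym in place of C3, which was not measured. At an unadjusted p under 0.05 the 6 lists held 3 genes higher and 5 lower, out of 138 different genes, against 4.84% and 2.75% of all genes. Within the acute phase list, Hp (haptoglobin) lay wholly above the untreated arrays, at 7.18, 7.08, 6.95 and 6.90 against 6.01, 6.43, 6.65 and 6.58 (0.61 ± 0.14), and Cp (ceruloplasmin) differed by 0.92 ± 0.59 with overlap. Among the chemokines, Cxcl12, which keeps leukocytes and progenitors in place, was at 8.77 to 9.57 in untreated mice and at 8.60 to 8.67 at 18 hours (-0.57 ± 0.15). Immediate early factors had a median of 0.02 over 27 genes. Tubule injury genes had a median of 0.08 over 17, with 3 higher and 1 lower at an unadjusted p under 0.05. Among the metabolic lists, the medians were -0.17 for 31 fatty acid oxidation genes (1 higher and 3 lower at an unadjusted p under 0.05), -0.06 for 17 cholesterol synthesis genes (0 and 0) and -0.14 for 25 respiratory chain genes (0 and 0). The peroxisomal thiolase Acaa1b differed by -0.70 ± 0.16 (limma unadjusted p = 0.00175).

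Of 16 proximal tubule markers 0 were higher and 4 lower at an unadjusted p under 0.05, against 2.75% of all genes lower, and their median was -0.09. The glucose carrier Slc5a2 (-1.02 ± 0.40) and the amino acid carrier Slc6a19 (-0.58 ± 0.21) were among the lower ones, and the groups overlapped for all 4. Of 16 markers of the distal nephron and collecting duct 1 was higher and 1 lower, with a median of -0.11. The lower one, the calcium-binding protein Pvalb of the distal convoluted tubule, lay wholly below the untreated arrays, at 6.89 to 7.35 against 7.38 to 8.03 (-0.68 ± 0.16). Folh1, a glutamate carboxypeptidase of the proximal brush border, was at 13.21, 13.88, 12.97 and 13.24 in untreated mice and at 15.25, 14.46, 14.26 and 14.63 at 18 hours (1.32 ± 0.25, adjusted p = 0.438). Cdkn1a (p21), the cell cycle inhibitor that p53 induces, was at 7.43, 6.91, 6.62 and 6.62, and then at 8.60, 7.93, 7.89 and 9.08 (1.48 ± 0.29, adjusted p = 0.438). The groups did not overlap for either gene. The list of 18 p53 targets had a median of 0.03. Avpr2, the vasopressin receptor of the collecting duct, was at 7.29 to 7.65 and then at 7.97 to 8.36 (0.64 ± 0.12, adjusted p = 0.422), and Aqp2, the water channel it controls, at 10.93 to 11.37 and then at 11.23 to 12.96 (1.01 ± 0.34, with overlap). Slc22a4, an ergothioneine carrier, was at 11.20 to 11.55 and then at 10.27 to 10.87 (-0.76 ± 0.14). The rest of the 27 were lower at 18 hours with no overlap: the tetraspanin Tspan4 (-0.82 ± 0.12), the carboxypeptidase Cpm (-0.72 ± 0.11), the mitochondrial folate enzyme Mthfd1l (-0.55 ± 0.10), the ribonuclease P subunit Pop4 (-0.46 ± 0.07), Pcnx3 (-0.42 ± 0.08) and the chloride channel Clcn2 (-0.36 ± 0.07).

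**Figure D2:**
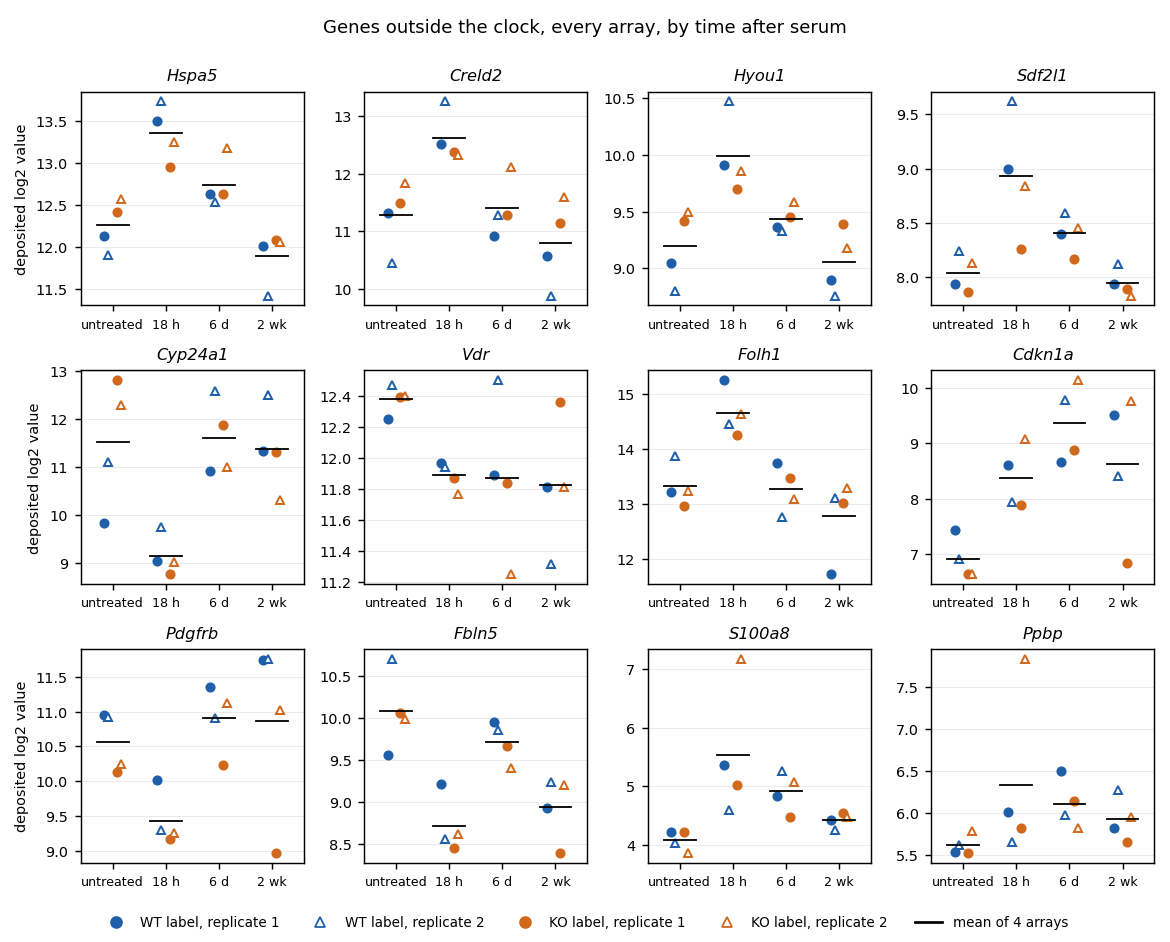
Deposited log2 value (y axis, a separate scale in each panel) of 12 genes outside the clock in each of the 16 arrays by time after serum (x axis), with symbols and bars as in the plot of clock genes. Hspa5 lies above its untreated range at 18 hours (12.95 to 13.74 against 11.91 to 12.57), Pdgfrb below it (9.16 to 10.02 against 10.13 to 10.95), and for Ppbp 1 array, KO replicate 2 at 7.83, stands apart.

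**Figure D3:**
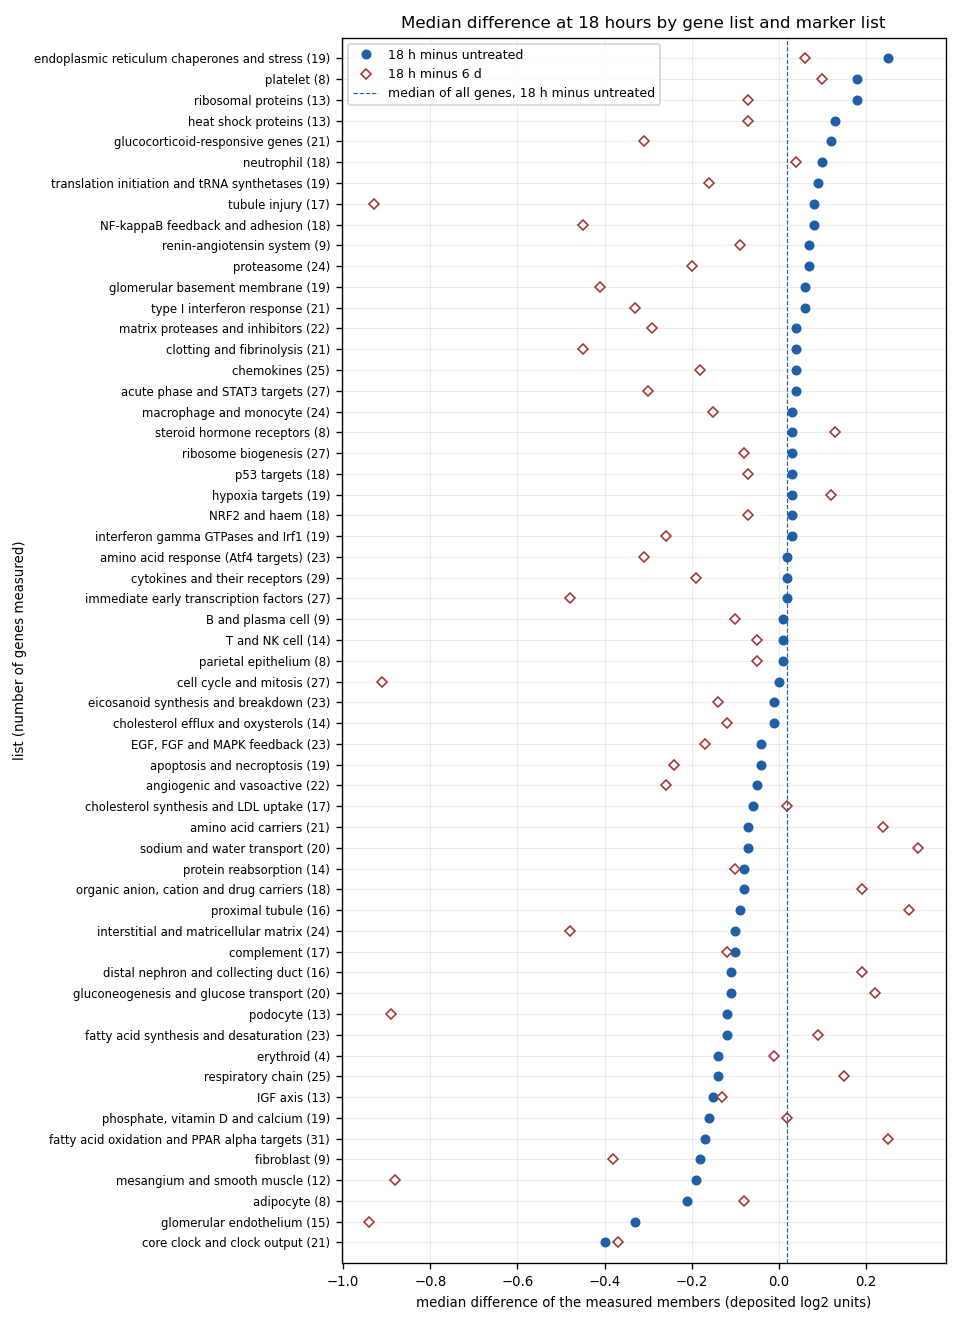
Median difference of the measured members of each gene list and marker list reported, without the sex-biased kidney genes (x axis, deposited log2 units; lists on the y axis with their number of genes), 18 hours minus untreated as filled circles and 18 hours minus 6 days as open diamonds, with the median of all genes (0.02) as a dashed line. Against untreated mice the lists run from -0.40 for the clock to 0.25 for the ER chaperones, and against 6 days down to -0.94 for the glomerular endothelium.

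Of 30142 genes 824 passed the test between 18 hours and 6 days (2.73%), 138 higher and 686 lower at 18 hours. Proliferation genes led the lower side. Of 27 cell cycle and mitosis genes measured, 23 were lower at 18 hours and 0 higher, against 2.28% of all genes called lower, and their median difference was -0.91. Mki67, the marker of dividing cells, was at 5.94, 5.82, 5.72 and 5.13 at 18 hours and at 8.48, 9.26, 8.58 and 9.79 at 6 days, a difference of -3.37 ± 0.30 (adjusted p = 0.00643). Untreated mice had 5.59 to 6.78, so that the 18-hour arrays lay in or below the untreated range. The topoisomerase Top2a (-1.99 ± 0.14, adjusted p = 0.00301), the mitotic kinase Cdk1 (-1.15 ± 0.12, adjusted p = 0.00777) and cyclin A2 (Ccna2; -1.39 ± 0.21, adjusted p = 0.0178) were lower too.

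Of 27 immediate early genes 9 were lower at 18 hours than at 6 days and 0 higher, against 2.28% and 0.458% of all genes. Nr4a1, an orphan nuclear receptor, was at 6.18 to 6.58 at 18 hours and at 8.91 to 10.38 at 6 days (-2.98 ± 0.30, adjusted p = 0.0067), with 6.19 to 6.70 in untreated mice. Klf4 (-1.07 ± 0.08, adjusted p = 0.00413) and Egr1 (-0.48 ± 0.09, adjusted p = 0.032) were lower as well, as was the stress protein Gadd45b (-2.27 ± 0.21, adjusted p = 0.00664). Of 24 interstitial and matricellular matrix genes 12 were lower, among them Ccn1 (-2.22 ± 0.37, adjusted p = 0.022) and Tgfbi (-1.03 ± 0.10, adjusted p = 0.0067). Adm (adrenomedullin), a vasodilator peptide, was at 9.62 to 10.50 at 18 hours and at 13.16 to 13.75 at 6 days (-3.44 ± 0.21, adjusted p = 0.00192). Tagln differed by -3.32 ± 0.34 (adjusted p = 0.00687) and the intermediate filament Vim (vimentin) by -2.79 ± 0.33 (adjusted p = 0.00907). Among glomerular endothelial markers 8 of 15 were lower, including Emcn (endomucin; -1.76 ± 0.33, adjusted p = 0.0302), Sox17 (-0.85 ± 0.15, adjusted p = 0.0257) and Erg (-0.59 ± 0.10, adjusted p = 0.0212).

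The genes named above for their distance from untreated mice were chosen partly on their 18-hour values. The same 18-hour arrays are one side of the test against 6 days, so passing it is partly built in by that choice. Some of these genes did not pass, among them Tnxb (-0.28 ± 0.10, adjusted p = 0.185), Itih5 (0.03 ± 0.22, adjusted p = 0.979) and Clcn2 (0.05 ± 0.08, adjusted p = 0.849). Several others did pass. Those lower at 18 hours were Pdgfrb (-1.48 ± 0.27, adjusted p = 0.0271), Igfbp5 (-1.70 ± 0.26, adjusted p = 0.0181), Fbln5 (-1.01 ± 0.18, adjusted p = 0.0277), Tspan4 (-1.12 ± 0.16, adjusted p = 0.0158), Cpm (-1.04 ± 0.14, adjusted p = 0.0118), Svep1 and Pop4. Higher at 18 hours, besides Arntl and Npas2, were Folh1 (1.38 ± 0.26, adjusted p = 0.0322), Avpr2 (0.77 ± 0.15, adjusted p = 0.0347), Adamts6 (0.57 ± 0.11, adjusted p = 0.0372) and Hp (0.36 ± 0.08, adjusted p = 0.0459). The largest named difference on the higher side was Clec2h, a lectin-like gene, at 1.82 (adjusted p = 0.0383), followed by Ranbp3l at 1.70 (adjusted p = 0.0345). Fgg, a fibrinogen chain, did not pass (adjusted p = 0.0689) although its groups lay apart, at 8.08 to 8.99 and at 9.33 to 16.14. Ccna2, Nr4a1, Klf4, Egr1, Gadd45b, Tgfbi, Tagln, Vim, Clec2h and Ranbp3l were chosen after their values were seen.

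Marker levels of the extracts also differed between these times. The podocyte mean was 9.10 to 9.79 at 18 hours and 9.54 to 10.90 at 6 days, the endothelial mean 8.39 to 9.04 and 8.98 to 9.97, and the mesangial mean 7.73 to 8.29 and 8.55 to 9.44, while the proximal tubule mean was 15.57 to 15.93 and 15.26 to 15.90. With the difference between the tubule and podocyte means as a covariate, 1 gene passed (Adm, -2.98 ± 0.24, adjusted p = 0.0412). The differences under that covariate were -3.18 ± 0.45 for Mki67 (adjusted p = 0.133) and -2.83 ± 0.46 for Nr4a1 (adjusted p = 0.141). The covariate itself differs between the times, so make-up and time cannot be told apart by it. Leaving out 1 array at a time left 98 (without KO 18 hours replicate 1) to 1160 calls (without KO 6 days replicate 1). Besides KO 18 hours replicate 1, the arrays whose loss moved the count by more than 1.5 times were WT 18 hours replicate 1 (506), WT 18 hours replicate 2 (122), KO 18 hours replicate 2 (150), WT 6 days replicate 2 (136) and KO 6 days replicate 2 (275). Of the 33 genes named in this comparison, 11 kept their call without KO 18 hours replicate 1 and 0 did without both 18-hour replicate 2 arrays, where no gene passed (limma, 3216 genes at an unadjusted p under 0.05). All 33 kept their sign in every alternative. The cell cycle count was 11 without KO 18 hours replicate 1, 12 without either 18-hour replicate 2 array or WT 6 days replicate 2, 14 without WT 18 hours replicate 1, and 0 with the covariate or without both 18-hour replicate 2 arrays.

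**Figure D4:**
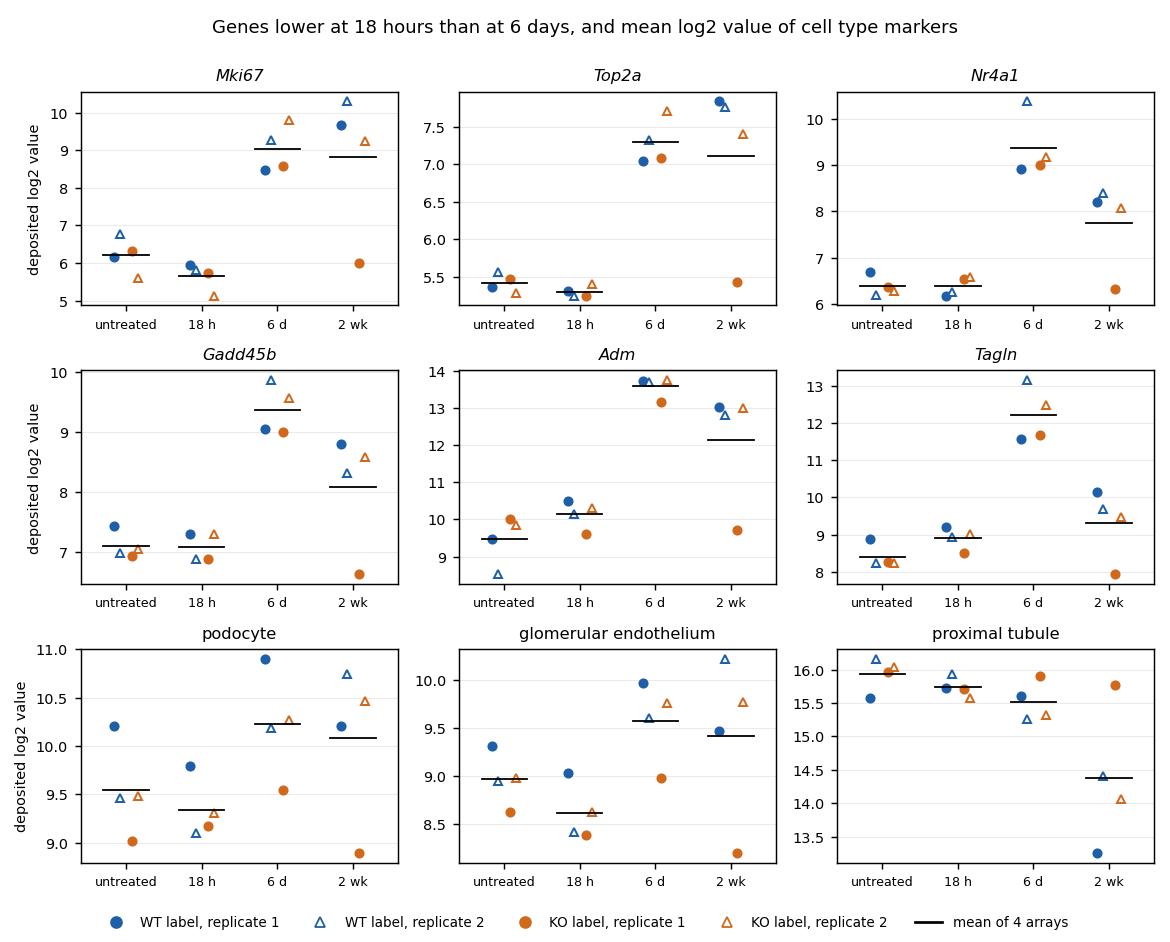
Deposited log2 value (y axis, a separate scale in each panel) by time after serum (x axis) of 6 genes that were lower at 18 hours than at 6 days, and the mean log2 value of podocyte, glomerular endothelial and proximal tubule markers, in each of the 16 arrays, with symbols and bars as in the plot of clock genes. Mki67 lies between 5.13 and 5.94 at 18 hours and between 8.48 and 9.79 at 6 days, and the podocyte mean between 9.10 and 9.79 and between 9.54 and 10.90.

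Against 2 weeks the test called 32 genes (0.106%), 4 higher (0.0133%) and 28 lower (0.0929%) at 18 hours. The higher genes were Car2, a carbonic anhydrase, Folr2, a folate receptor, Cmip and Sult1c2, a sulfotransferase, with differences of 1.07, 1.07, 1.09 and 1.55 and adjusted p-values of 0.0499, 0.0494, 0.042 and 0.0494. All 28 lower ones were numbered gene models, vomeronasal receptor pseudogenes or odorant receptors, whose near-identical copies can share probes. The count depended on every array. It was 5046 without KO 2 weeks replicate 1, whose proximal tubule mean of 15.77 stood above the 13.25 to 14.41 of the other arrays at that time. It was 3 without KO 2 weeks replicate 2 and 0 without any other single array of this comparison. In the same comparison the median difference was 0.87 for the ER chaperones and -0.81 for the cell cycle genes, with 0 of either list passing (limma, 32 genes passing in all).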

How the data were processed

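The authors deposited log2 values for 72688 probesets on 16 Affymetrix arrays. They were made with Affymetrix Expression Console and Transcriptome Analysis Console, per the submitters' processing notes; no summarisation method, version or genome build is given in the sources used here. Array medians ran from 5.57 to 5.90. Of the probesets, 30604 had exactly 1 gene symbol, 2146 had several and 39938 none; 827 symbols were updated through their Entrez identifier. For each symbol the probeset with the highest mean over the 16 arrays was kept, which left 30142 genes. Arrays give no counts, so their number limits the precision.

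Each comparison took 4 arrays against 4, genotypes pooled, fitted with limma 3.58.1 in R 4.3.3 (lmFit, then eBayes with an intensity trend), with Benjamini-Hochberg adjustment over all genes and a threshold of 0.05. The p-values measure the spread between mice, with 1 array per mouse, since the series' design text gives 16 mice for the 16 arrays. Each group pools both genotypes without a genotype term, so that spread also holds the difference between genotypes. The fit was tried on simulated data shaped like 18 hours against untreated, with 30142 genes and 50 changed at each size. It called 23 of 50 genes changed by 0.5 and 41 of 50 changed by 1. It also called 49 of 50 changed by 2 and 50 of 50 changed by 4, with 8 false calls. The 200 planted changes, 50 of them by 4, ease the adjustment for the rest. In the real comparison Arntl differed by 1.99 and Dbp by -1.93, and neither passed (limma adjusted p = 0.24 and 0.305). The simulated rates therefore do not show how often a change of a given size would be called in the real arrays. Named genes were those called or, since none was, the 27 with the smallest p-values, leaving out numbered gene models, small RNAs, odorant, vomeronasal and taste receptors and antigen receptor segments; to these come up to 4 members with the largest absolute difference from each of 45 gene lists and 16 marker lists, and Esr1 and Abcc3 as checks of the labels. Not all of these list members are named in the text, and other genes were named to complete a list. Of 1215 list entries, 113 were not measured. Some entries counted as measured were matched through a synonym to another gene. Olfr48 stood in for C3, Loxl3 for Loxl2 and Tom1l2 for Srebf1, and these listed genes were not measured either. Only part of the lists is described in the text, others are shown by their median in a plot, and 1 is not reported here. The members and lists were chosen with earlier results of these data known. Alternatives covered the filter on dim genes, probesets, normalization, variance moderation, array weights, covariates, the replicate block and each array left out. Promoter sequences came from RefSeq (GRCm38.p6).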

Additional observations from a re-analysis of the deposited data

Results flagged for a closer look

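A search for outlying values covered the untreated group and the earliest group after serum, each of 4 arrays. The later groups were not searched, so outlying values there are not listed. In each group searched, the highest and lowest value of every gene named in the text were compared with the rest of the group. A value was singled out when its gap to the nearest array exceeded, as a share of the group's range, Dixon's critical value for 4 values, which chance gives in about 1 of 20 groups, and 12 of 190 groups held one.

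Among the arrays at 18 hours, WT replicate 1 stood apart for Cry2 (7.03, with the nearest array at 7.32), Pdgfrb (10.02, nearest 9.30) and the angiopoietin receptor Tek (10.44, nearest 9.29). KO replicate 2 stood apart for the platelet chemokines Ppbp (7.83, nearest 6.01) and Pf4 (7.42, nearest 6.42) and for the amino acid carrier Slc6a19 (11.98, nearest 12.48), and KO replicate 1 for Ranbp3l (10.91, nearest 10.47). WT replicate 2 was apart for Per1 at 8.42, below 3 arrays at 8.56 to 8.58. Among the untreated arrays, WT replicate 1 was the highest for Bhlhe40 (9.06, nearest 8.53), Adamts6 (8.54, nearest 8.25), Erg (7.27, nearest 6.87) and Tagln (8.87, nearest 8.25).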

How the results depend on the processing

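Between 18 hours and untreated mice, limma called 0 genes under all 23 alternatives, and 1108 to 3563 genes stood at an unadjusted p under 0.05 in those run on genes. All 78 genes named in this comparison kept their sign throughout. The replicate block also gave 0 calls here. The deviations of same-numbered arrays correlated between -0.68 and 0.20 over the 6 pairs of 18-hour and untreated groups. The value of -0.68 was between the WT and KO groups at 18 hours, whose replicate 2 arrays go against their genotype labels, so it cannot be read for pairing. Over all 28 pairs of groups the highest was 0.59, between KO 6 days and KO 2 weeks. Whether replicate numbers pair the mice is therefore not settled.

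Between 18 hours and 6 days, where the main count was 824, the count was 379 over all probesets, 228 and 183 in fits over all 16 arrays with a mean per time and per group, 1 with the tubule covariate, 0 without both 18-hour replicate 2 arrays and 1845 with a covariate of sex-biased kidney genes; the last pair of settings was chosen after seeing the data. Leaving out 1 array gave 98 to 1160, and the replicate block 647. Without KO 18 hours replicate 1 the count was 98, without WT 18 hours replicate 2 it was 122, without WT 6 days replicate 2 it was 136, without KO 18 hours replicate 2 it was 150, without KO 6 days replicate 2 it was 275 and without WT 18 hours replicate 1 it was 506.

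Between 18 hours and 2 weeks, where the main count was 32, it was 1 over all probesets, 2 after quantile normalization, 0 after median centring, 20 without the intensity trend, 15 with robust moderation, 5288 with array weights, 1435 and 2483 in the fits over all 16 arrays, 0 with genotype as a covariate, 0 with the replicate block, 433 with the tubule covariate, 0 without both 18-hour replicate 2 arrays and 53 with the sex-biased covariate. Leaving out 1 array gave 0 to 5046, the last without KO 2 weeks replicate 1. The cause of these shifts was not tested. Signal is not given against background in these values, so no limit for dim genes can be set.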
